A study of Canis lupus familiaris with 12 samples.

Results

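PLEKHA5, PLEKHA6, PLEKHA7, PDZD11, TSPAN33, CAMSAP1, CAMSAP2, and CAMSAP3 encode proteins of the PLEKHA–PDZD11 complexes of epithelial junctions and the proteins that protect microtubule minus ends. The genes were chosen by name among those listed in the normalized expression table of MDCKII cells, with the low level of PLEKHA7 in WT cells already known. The table lists 8 of these 8 genes among 13672 genes in all. All of the 8 passed the filter used for testing (more than 1 CPM, a read count scaled to sequencing depth, in at least 3 libraries), as did 12650 genes in all. Because presence in the table and the WT level were used in the choice, the levels in WT cells are given as a description, without a test. The rule of choice did not use the comparisons between genotypes, but earlier results of these data were known when the genes and lists were chosen.

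PLEKHA7 is a protein of the zonula adherens that binds p120-catenin (CTNND1) and anchors microtubule minus ends there through CAMSAP3 and the minus-end-directed motor KIFC3. PDZD11 binds to the WW domains of PLEKHA5, PLEKHA6, and PLEKHA7 and links them to nectins, to the copper pump ATP7A, and to the tetraspanin TSPAN33, a regulator of the metalloprotease ADAM10. CAMSAP1, CAMSAP2, and CAMSAP3 bind to the minus ends of microtubules that are not attached to centrosomes. PLEKHA7 also recruits paracingulin (CGNL1) to adherens junctions (AJ), whereas cingulin (CGN) is a protein of tight junctions (TJ).

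RNASeq was carried out on MDCKII cells, a dog kidney epithelial cell line, of 4 genotypes with 3 libraries each: WT, CGN-KO, CGNL1-KO, and CGN and CGNL1 double-KO. The KO lines were made by CRISPR/Cas9 editing, each KO genotype is represented by 1 clonal line, and all cells were untreated. A difference between genotypes therefore cannot be told apart from a difference between clones. Nothing in the labels says that libraries of a genotype came from separate cultures, so p-values measure the spread between these libraries, which may be technical.

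Libraries held between 16837532 and 30086076 reads in listed genes. CGN was between 199 and 233 CPM in WT and between 198 and 213 CPM in CGNL1-KO libraries, against 47.0 to 56.5 CPM in CGN-KO and 39.7 to 45.3 CPM in double-KO libraries. CGNL1 was between 7.74 and 12.3 CPM in WT, 1.76 and 3.02 CPM in CGNL1-KO, and 1.11 and 1.76 CPM in double-KO libraries. CGNL1 was also lower in CGN-KO libraries, at 5.04 to 6.92 CPM. Of 12 markers of kidney epithelium, 12 were listed, with summed levels of 7933 to 8080 CPM in WT, 8302 to 8442 CPM in CGN-KO, 8437 to 8741 CPM in CGNL1-KO, and 7914 to 8064 CPM in double-KO libraries; the lowest was the cadherin CDH16, at 0.828 to 5.14 CPM. Of 9 markers of leukocytes, endothelium, and fibroblasts, 2 were listed (CD68 and KDR), with a summed level of at most 3.75 CPM in any library, while PTPRC, PECAM1, CDH5, COL1A1, COL3A1, PDGFRB, and DCN were not listed. In bulk RNA, fewer cells that express a gene and less RNA per cell cannot be told apart.

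The level of PLEKHA7 was lower in the CGN-KO, CGNL1-KO, and double-KO lines than in WT cells. TSPAN33 was higher in CGN-KO and double-KO cells. CAMSAP2 was lower in each KO line by a smaller amount, CAMSAP3 was higher in CGN-KO cells, and CAMSAP1 was higher in double-KO cells. PLEKHA5, PLEKHA6, and PDZD11 did not pass the test in any of these comparisons. The 3 comparisons share the WT libraries, so they are not independent of each other.

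Differences were tested with limma on log2(CPM + 1) over all 12650 genes, at an adjusted p below 0.05 at any fold. In CGN-KO cells 2 of the 8 genes were higher and 2 were lower than in WT cells, where 11.2% of all genes tested were higher and 7.87% were lower. In CGNL1-KO cells 0 were higher and 2 were lower, where 6.81% of all genes were higher and 3.49% were lower. In double-KO cells 2 were higher and 2 were lower, where 14.8% of all genes were higher and 11.5% were lower. At a fold change of at least 2 as well, limma called 0 of the 8 genes in each comparison with WT, where the shares of all genes called were 1.31% (CGN-KO), 0.617% (CGNL1-KO), and 1.41% (double-KO). The count at this fold was also 0 at an unadjusted p below 0.05, but edgeR and DESeq2 on the reads each called 1 gene in CGNL1-KO cells, which was PLEKHA7. The test across the 4 genotypes called 5 of the 8 genes (PLEKHA7, TSPAN33, CAMSAP1, CAMSAP2, and CAMSAP3), where it called 29.9% of all genes. The median log2 fold change of the 8 genes against WT was 0.073 (CGN-KO), -0.0047 (CGNL1-KO), and 0.087 (double-KO), beside medians of all genes of -0.0039, -0.0031, and -0.00036.

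**Figure D1:**
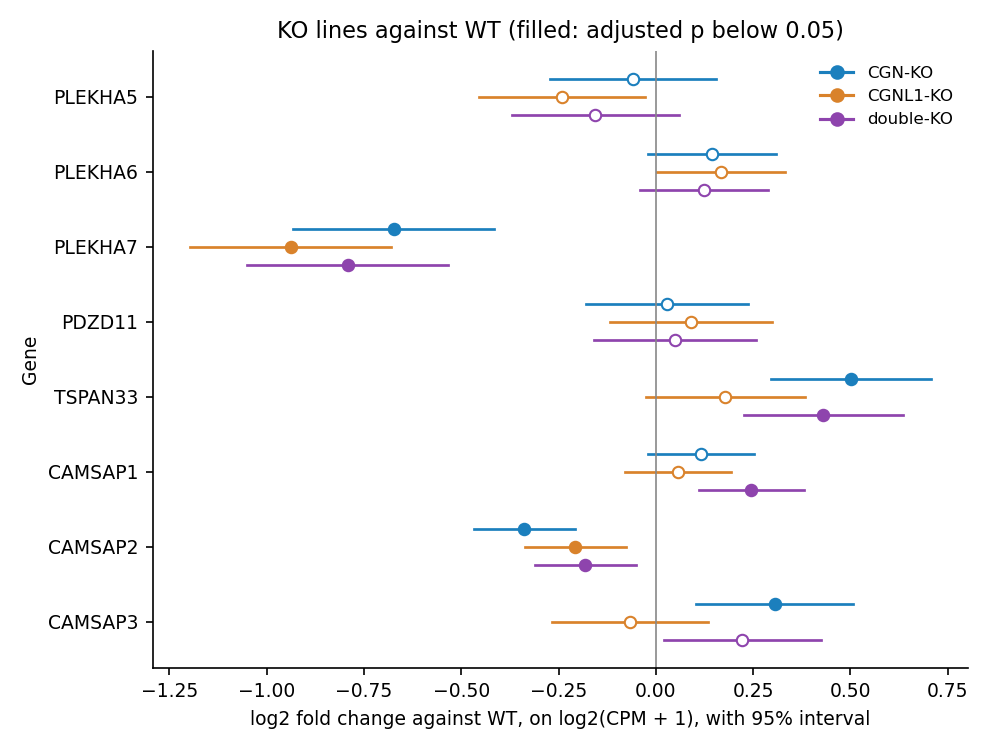
log2 fold change of each of the 8 genes in CGN-KO (blue), CGNL1-KO (orange), and double-KO (purple) cells against WT, on log2(CPM + 1); points are limma estimates, lines are 95% confidence intervals, and filled points have an adjusted p below 0.05. PLEKHA7 lies at -0.67, -0.94, and -0.79, farther from 0 than any of the other genes, while the intervals of PDZD11 span 0 in the 3 lines.

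PLEKHA7, the AJ protein that binds p120-catenin and CAMSAP3, was scarce, so its reads are given with its level. The WT libraries held 94, 121, and 117 reads of PLEKHA7, which correspond to 5.54, 6.68, and 5.59 CPM. The CGN-KO libraries held 96, 73, and 55 reads, or 3.17, 3.60, and 3.25 CPM. The first of these has more reads than the first WT library but a lower level, because it was the most deeply sequenced library. The CGNL1-KO libraries held 40, 67, and 47 reads, or 2.32, 3.02, and 2.51 CPM. The double-KO libraries held 55 reads in the library without a number and 62 and 70 reads in replicates 2 and 3, or 2.66, 3.53, and 2.84 CPM. The highest level in a KO library (3.60 CPM) was below the lowest in a WT library (5.54 CPM), so that WT and KO libraries did not overlap.

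**Figure D2:**
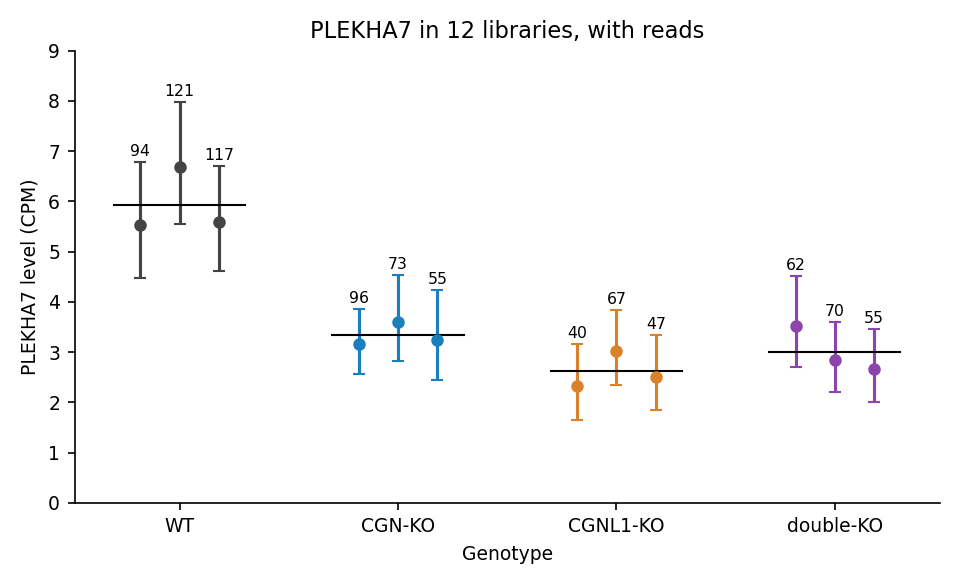
PLEKHA7 level (CPM) in each of the 12 libraries by genotype, with the number of reads above each point, the exact 95% Poisson interval of those reads as a bar, and the mean of the 3 libraries as a black line. The 3 WT libraries sit between 5.54 and 6.68 CPM, above the 9 KO libraries, which sit between 2.32 and 3.60 CPM.

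The mean level of PLEKHA7 was 5.94 ± 0.644 CPM in WT (SD, n = 3), 3.34 ± 0.233 CPM in CGN-KO, 3.01 ± 0.455 CPM in double-KO, and 2.62 ± 0.363 CPM in CGNL1-KO cells. The KO means were 56.2%, 50.7%, and 44.1% of the WT mean. The log2 fold change against WT was -0.67 in CGN-KO cells (SE 0.122, 95% confidence interval -0.93 to -0.42, adjusted p = 0.000915), -0.94 in CGNL1-KO cells (-1.20 to -0.68, adjusted p = 8.22e-05), and -0.79 in double-KO cells (-1.05 to -0.53, adjusted p = 0.000166). At this level the 1 added to each CPM before the logarithm reduces the fold change. On the reads themselves, edgeR gave -0.83, -1.17, and -0.99 (adjusted p = 0.00112, 0.000164, and 0.000233). With 36 of 12650 genes at a lower log2 fold change, PLEKHA7 was among the most reduced genes of CGNL1-KO cells, and 104 and 137 genes were lower in CGN-KO and double-KO cells.

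The spread of PLEKHA7 between libraries of a genotype was close to that of counting reads. The coefficient of variation was 10.8% (WT), 6.99% (CGN-KO), 13.8% (CGNL1-KO), and 15.1% (double-KO), and the value given by Poisson counting alone was 9.55%, 11.8%, 14.2%, and 12.7%, respectively. The exact 95% Poisson interval was 4.48 to 6.78 CPM for WT replicate 1, the WT library with fewest reads. It did not overlap that of CGN-KO replicate 1 (2.56 to 3.87 CPM), but its lower end overlapped those of CGN-KO replicate 2 (2.83 to 4.53 CPM) and double-KO replicate 2 (2.704 to 4.52 CPM). The intervals cover counting error only, since reads amplified by PCR without molecular identifiers are not independent molecules.

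No comparison between KO lines passed the test for PLEKHA7. The log2 difference was -0.12 between double-KO and CGN-KO cells (95% confidence interval -0.38 to 0.14) and 0.15 between double-KO and CGNL1-KO cells (-0.11 to 0.40). Between CGN-KO and CGNL1-KO cells it was 0.26 (0.0064 to 0.52, adjusted p = 0.270). The 3 CGN-KO libraries were all above the 3 CGNL1-KO libraries, and double-KO libraries overlapped both.

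PLEKHA5, a relative of PLEKHA7 that also carries WW domains, was at 61.7, 54.3, and 52.9 CPM in WT libraries and at 59.5, 48.4, and 54.4 CPM in CGN-KO libraries. It was at 56.2, 44.7, and 42.2 CPM in CGNL1-KO and at 52.8, 52.3, and 46.2 CPM in double-KO libraries, the first of which was the library without a number. Only the double-KO libraries were all below the WT libraries, and the nearest of them were 52.8 and 52.9 CPM. The log2 fold change of PLEKHA5 was -0.058 in CGN-KO cells (95% confidence interval -0.27 to 0.16), -0.24 in CGNL1-KO cells (-0.46 to -0.028, adjusted p = 0.159), and -0.16 in double-KO cells (-0.37 to 0.058). Without CGNL1-KO replicate 1, the highest of its group, the value in CGNL1-KO cells was -0.36 (adjusted p = 0.0130).

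PLEKHA6, the other relative that binds PDZD11, was at 55.5, 47.6, and 54.6 CPM in WT libraries and at 54.8, 60.9, and 58.6 CPM in CGN-KO libraries. It was at 60.7, 58.6, and 57.9 CPM in CGNL1-KO libraries, each above the WT libraries, and at 51.2, 57.6, and 63.7 CPM in double-KO libraries, which overlapped them. The log2 fold change was 0.14 in CGN-KO cells (95% confidence interval -0.021 to 0.31), 0.17 in CGNL1-KO cells (0.0028 to 0.33, adjusted p = 0.213), and 0.12 in double-KO cells (-0.041 to 0.29). Of the summed CPM of PLEKHA5, PLEKHA6, and PLEKHA7, without correction for length, PLEKHA7 made up 5.20% ± 0.848 (SD, n = 3) in WT cells, against 2.89% ± 0.264 (CGN-KO), 2.41% ± 0.450 (CGNL1-KO), and 2.71% ± 0.348 (double-KO) in the KO lines.

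PDZD11, the PDZ protein that holds PLEKHA proteins and their membrane partners together, was at 28.4, 31.4, and 26.4 CPM in WT libraries. It ranged from 28.3 to 30.8 CPM in CGN-KO, from 25.4 to 35.4 CPM in CGNL1-KO, and from 28.7 to 31.1 CPM in double-KO libraries, and each of these groups overlapped WT. The log2 fold change was 0.029 (95% confidence interval -0.18 to 0.24), 0.091 (-0.12 to 0.30), and 0.050 (-0.16 to 0.26), respectively. The test across genotypes gave an adjusted p of 0.866.

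TSPAN33, the tetraspanin that is docked at junctions through PDZD11, was at 8.78, 7.67, and 9.13 CPM in WT libraries, from 149, 139, and 191 reads. It was at 12, 12.6, and 12.8 CPM in CGN-KO libraries and at 12.4, 12.2, and 10.9 CPM in double-KO libraries, each above the highest WT library. The CGNL1-KO libraries, at 10.97, 9.48, and 8.93 CPM, overlapped the WT libraries. The mean level was 8.53 ± 0.760 CPM in WT, 12.5 ± 0.406 CPM in CGN-KO, 11.8 ± 0.838 CPM in double-KO, and 9.79 ± 1.05 CPM in CGNL1-KO cells (SD, n = 3). TSPAN33 rose by 0.50 on the log2 scale in CGN-KO (SE 0.0965, adjusted p = 0.00151) and by 0.43 in double-KO cells (adjusted p = 0.00347), to 146% and 139% of the WT mean. In CGNL1-KO cells the value was 0.18 (95% confidence interval -0.026 to 0.38, adjusted p = 0.296).

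Although TSPAN33 passed the test in CGN-KO and not in CGNL1-KO cells, the direct comparison of these lines did not pass in the fit of the 12 libraries. The difference was 0.32 (95% confidence interval 0.12 to 0.53, adjusted p = 0.0667), with the CGN-KO libraries all above the CGNL1-KO libraries. In these 2 genotypes the replicate numbers were taken as pairs from these same data, and what a number marks is not stated. With the number as a block, limma on only the 6 libraries of these lines gave the same difference an adjusted p of 0.0190. That fit was added after the data were seen, so it does not decide whether TSPAN33 differed between these lines. Limma also called the difference with library totals (adjusted p = 0.0387) and without CGNL1-KO replicate 1 (adjusted p = 0.0198). With the replicate block on all numbered libraries, limma gave an adjusted p of 0.0451. In the other 17 of 21 alternatives the difference was not called. The difference between double-KO and CGNL1-KO cells was 0.25 (0.047 to 0.46, adjusted p = 0.0969).

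**Figure D3:**
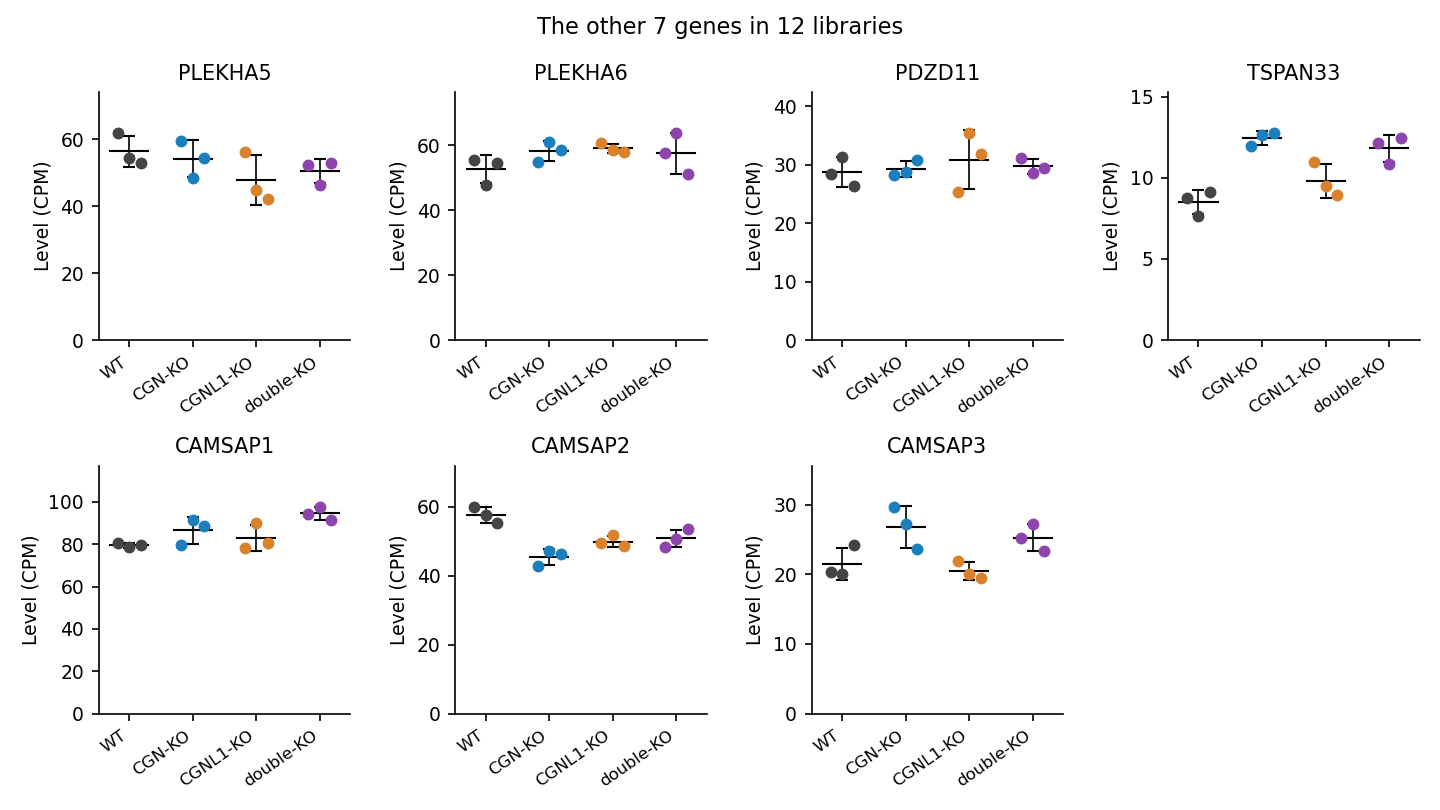
Level (CPM) of PLEKHA5, PLEKHA6, PDZD11, TSPAN33, CAMSAP1, CAMSAP2, and CAMSAP3 by genotype; points are libraries, the horizontal line is the mean, and the bar is the SD of 3 libraries, on an axis that starts at 0 in each panel. The CGN-KO and double-KO libraries of TSPAN33 lie between 10.9 and 12.8 CPM, above WT, and the 9 KO libraries of CAMSAP2 lie between 42.7 and 53.4 CPM, below WT.

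Among the minus-end binding genes, CAMSAP2 was lower in each KO line. It was at 59.9, 57.7, and 55.3 CPM in WT libraries and at 42.7, 47.2, and 46.4 CPM in CGN-KO libraries. It was at 49.3, 51.6, and 48.5 CPM in CGNL1-KO libraries and at 53.4, 48.3, and 50.6 CPM in double-KO libraries. Each KO library was below the lowest WT library. The log2 fold change of CAMSAP2 was -0.34 in CGN-KO cells (SE 0.0613, adjusted p = 0.000932), -0.21 in CGNL1-KO cells (adjusted p = 0.0414), and -0.18 in double-KO cells (adjusted p = 0.0386), and the means were 78.8%, 86.4%, and 88.0% of WT.

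The call of CAMSAP2 in CGN-KO cells held when any library was left out. The call in CGNL1-KO cells was lost without WT replicate 1 or 2, CGN-KO replicate 3, CGNL1-KO replicate 1 or 3, or double-KO replicate 2 or 3, and in a fit of these 2 genotypes only, with an adjusted p of at most 0.142. The call in double-KO cells was lost without WT replicate 1 or 2, CGN-KO replicate 3, or double-KO replicate 2 or 3, with an adjusted p of at most 0.155. CAMSAP2 made up 36.3% ± 1.32 of the summed CPM of the 3 CAMSAP genes in WT cells (SD, n = 3), against 28.6% ± 0.595 (CGN-KO), 32.5% ± 0.558 (CGNL1-KO), and 29.8% ± 1.69 (double-KO), without correction for length.

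CAMSAP3, the minus-end protein that PLEKHA7 tethers to the zonula adherens, was at 20.3, 20.1, and 24.2 CPM in WT libraries and at 29.7, 27.2, and 23.7 CPM in CGN-KO libraries. The lowest CGN-KO library lay below the highest WT library. It was at 21.9, 20.0, and 19.5 CPM in CGNL1-KO libraries and at 23.3, 25.2, and 27.2 CPM in double-KO libraries, and both groups overlapped WT. CAMSAP3 rose by 0.31 on the log2 scale in CGN-KO cells (SE 0.0948, adjusted p = 0.0331), to 125% of the WT mean. The value was -0.067 in CGNL1-KO (95% confidence interval -0.27 to 0.13) and 0.22 in double-KO cells (0.021 to 0.42, adjusted p = 0.0973). The call in CGN-KO cells was lost without WT replicate 1 or 2 or CGN-KO replicate 1 or 2, and in a fit of these 2 genotypes only, with an adjusted p of at most 0.134. Without WT replicate 3, the highest WT library, the value in double-KO cells was 0.30 (adjusted p = 0.0384).

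CAMSAP1 was at 80.7, 78.5, and 79.5 CPM in WT libraries and at 91.5, 94.5, and 97.7 CPM in double-KO libraries, which did not overlap. The CGN-KO libraries, at 79.4, 91.6, and 88.4 CPM, and the CGNL1-KO libraries, at 78.2, 90.1, and 80.7 CPM, overlapped WT. CAMSAP1 rose by 0.25 on the log2 scale in double-KO cells (SE 0.0639, adjusted p = 0.00927), to 119% of the WT mean. The value was 0.12 in CGN-KO (95% confidence interval -0.019 to 0.25) and 0.058 in CGNL1-KO cells (-0.078 to 0.19). The call in double-KO cells against WT held under 20 of 20 alternatives, with an adjusted p of at most 0.0476. The test of CAMSAP1 across the 4 genotypes (adjusted p = 0.0349) was lost when any WT or double-KO library, CGN-KO replicate 3, or CGNL1-KO replicate 3 was left out, with an adjusted p of at most 0.137.

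The KO lines were also compared with each other, where 8 genes are too few to set a count apart from the share of all genes. In double-KO against CGN-KO cells limma called 0 of the 8 genes, where it called 8.84% of all genes, with 1 gene at an unadjusted p below 0.05 (CAMSAP2, higher by 0.16) and 0 called by edgeR or DESeq2. In double-KO against CGNL1-KO cells limma called 0 of the 8 genes, where it called 14.4% of all genes, with 3 genes at an unadjusted p below 0.05. These were TSPAN33, CAMSAP1, and CAMSAP3, higher in double-KO cells by 0.25, 0.19, and 0.29, and edgeR and DESeq2 each called CAMSAP3 (adjusted p = 0.0484 and 0.0427). With limma, 1 or 2 genes were called when WT replicate 3, CGN-KO replicate 1 or 3, or CGNL1-KO replicate 1 or 2 was left out.

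In CGN-KO against CGNL1-KO cells limma called 1 of the 8 genes, CAMSAP3, where it called 5.19% of all genes. The CGN-KO libraries of CAMSAP3 (23.7 to 29.7 CPM) were all above the CGNL1-KO libraries (19.5 to 21.9 CPM), with a log2 difference of 0.37 (SE 0.0948, adjusted p = 0.0305). The replicate numbers of these 2 genotypes were taken as pairs from these same data. With the number as a block in these 6 libraries, limma called 3 of the 8 genes, where it called 1955 of all 12650 genes. In the fit of the 12 libraries it called 656 of all genes. The 3 genes, all higher in CGN-KO cells, were CAMSAP3 (adjusted p = 0.000425), TSPAN33 (adjusted p = 0.0190), and PLEKHA5 (log2 difference 0.18, adjusted p = 0.0294). Without the block, the call of CAMSAP3 was lost without CGN-KO replicate 1 or 2 or CGNL1-KO replicate 2 or 3, with an adjusted p of at most 0.143. Without CGNL1-KO replicate 1 limma called 3 of the 8 genes, where it called 1092 of all genes.

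Of 16 genes for junctional and membrane partners of the PLEKHA proteins and PDZD11, 14 were tested (NECTIN4 was not listed and SLC23A1 was below the filter). In CGN-KO cells 2 of the 14 were higher and 5 were lower than in WT cells, beside 11.2% and 7.87% of all genes. In CGNL1-KO cells 2 were higher and 1 was lower, beside 6.81% and 3.49% of all genes. In double-KO cells 3 were higher and 4 were lower, beside 14.8% and 11.5% of all genes. CGN, CGNL1, or both, the edited genes, are among the lower genes in each line. The median log2 fold change of the 14 genes was -0.078, 0.0086, and -0.089, respectively, beside medians of all genes of -0.0039, -0.0031, and -0.00036. Those that passed at a fold change of at least 2 were the targeted genes, which were also the pair of genes with the largest changes in the list: CGN in CGN-KO (-2.06) and double-KO cells (-2.32), and CGNL1 in CGNL1-KO (-1.68) and double-KO cells (-2.10). CGNL1 was also lower in CGN-KO cells (-0.61, adjusted p = 0.0201), a call that was lost without WT replicate 1 or CGN-KO replicate 2 or 3.

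The other partners with a call are named here after their values were seen. NECTIN3, a cell adhesion molecule of the AJ, was at 43.4, 44.8, and 49.8 CPM in WT libraries, and its lowest level in a KO library was 67.6 CPM. On the log2 scale NECTIN3 rose by 0.73, 0.63, and 0.67 in the CGN-KO, CGNL1-KO, and double-KO lines (adjusted p = 1.89e-06, 1.80e-05, and 3.88e-06). Its neighbour ZBED2 was higher as well, by 1.49, 1.12, and 1.35, while the median of 20 neighbours of NECTIN3 was 0.081, 0.039, and -0.0012. KIFC3, the minus-end-directed motor that PLEKHA7 and CAMSAP3 bring to the AJ, was at 57.0, 61.5, and 78.0 CPM in WT libraries, from 88.3 to 92.1 CPM in CGN-KO, and from 85.6 to 99.8 CPM in double-KO libraries. KIFC3 rose by 0.46 in CGN-KO (adjusted p = 0.00193) and by 0.48 in double-KO cells (adjusted p = 0.00105). In CGNL1-KO cells, at 71.8 to 81.4 CPM, the value was 0.21 (adjusted p = 0.177), and without WT replicate 3, the highest WT library, it was 0.34 (adjusted p = 0.0103). Of 20 neighbours of KIFC3, 5 (CGN-KO), 4 (CGNL1-KO), and 7 (double-KO) were higher and 0 were lower. The shares of all genes called higher were 11.2%, 6.81%, and 14.8%, and those called lower were 7.87%, 3.49%, and 11.5%. The median log2 fold change of these neighbours was 0.051, 0.025, and 0.043, and the part of this in the value of KIFC3 was not tested.

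**Figure D4:**
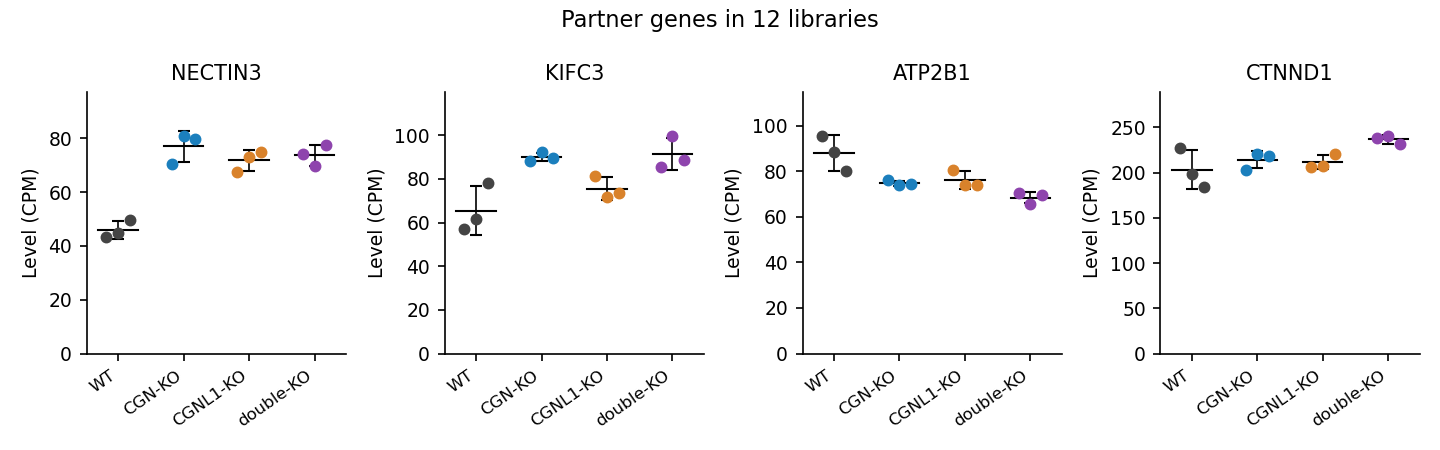
Level (CPM) of NECTIN3, KIFC3, ATP2B1, and CTNND1 by genotype; points are libraries, the horizontal line is the mean, and the bar is the SD of 3 libraries, on an axis that starts at 0 in each panel. The WT libraries of NECTIN3 lie between 43.4 and 49.8 CPM, below the 9 KO libraries, and WT replicate 3 of KIFC3, at 78.0 CPM, lies within the CGNL1-KO range.

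ATP2B1, a plasma membrane calcium pump, was at 95.7, 88.7, and 80.0 CPM in WT libraries and fell by 0.23 in CGN-KO (adjusted p = 0.0181) and by 0.36 in double-KO cells (adjusted p = 0.000676). In CGNL1-KO cells its value was -0.20 (adjusted p = 0.0539), which became a call without WT replicate 3 or CGNL1-KO replicate 1. It also did so with DESeq2 (adjusted p = 0.0370), with library totals (limma, adjusted p = 0.0320), and with the replicate block (limma, adjusted p = 0.0130). The call in CGN-KO cells was lost without WT replicate 1 or 2 or CGN-KO replicate 2 or 3. SLC5A6, the vitamin transporter, fell by 0.19 in CGN-KO (adjusted p = 0.00608) and by 0.17 in double-KO cells (adjusted p = 0.0108), and the call in double-KO cells was lost without double-KO replicate 2.

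CTNND1, p120-catenin, was between 185 and 227 CPM in WT and between 231 and 241 CPM in double-KO libraries, and rose by 0.22 in double-KO cells (adjusted p = 0.0182). This call was lost without WT replicate 2 or 3 or double-KO replicate 2 or 3. Of the 20 genes tested that neighbour CTNND1 (10 on each side), 14 were higher and 0 lower in double-KO cells, beside 14.8% and 11.5% of all genes. The median log2 fold change of these neighbours was 0.29, and the part of this in the value of CTNND1 was not tested. CDH1, E-cadherin, rose by 0.25 in CGNL1-KO cells (adjusted p = 0.0218), and lost the call without WT replicate 3 or CGNL1-KO replicate 3, and in a fit of these 2 genotypes only (adjusted p = 0.0814). AFDN, afadin, fell by 0.18 in CGN-KO cells (adjusted p = 0.0309), and lost the call without WT replicate 1 or 2 or any of the CGN-KO libraries, when scaled to library totals, and in a fit of these 2 genotypes only (adjusted p = 0.0625).

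ADAM10 and the other tetraspanins that regulate it did not pass the test in the limma fit of the 12 libraries. Of 6 genes, 4 were tested (TSPAN5 and TSPAN10 were not listed), and limma called 0 in each KO line, where the shares of all genes called higher and lower were 11.2% and 7.87% (CGN-KO), 6.81% and 3.49% (CGNL1-KO), and 14.8% and 11.5% (double-KO). The counts at an unadjusted p below 0.05 were 2, 0, and 1 in the CGN-KO, CGNL1-KO, and double-KO lines, and DESeq2 called 1 gene in double-KO cells where edgeR called 0. The genes with the largest log2 fold changes in the list were TSPAN15, at 0.39, -0.16, and -0.26 in CGN-KO, CGNL1-KO, and double-KO cells (adjusted p = 0.123, 0.641, and 0.288), and the protease ADAM10 itself, at 0.12, -0.035, and 0.14 (adjusted p = 0.0950, 0.746, and 0.0507). In double-KO cells ADAM10 became a call with DESeq2 (adjusted p = 0.0313), with library totals, and in a fit of only the genotypes compared. It also did so without WT replicate 2, CGN-KO replicate 1, or CGNL1-KO replicate 1. TSPAN15 became a call in CGN-KO cells with the replicate block or without CGNL1-KO replicate 1, and in double-KO cells in a fit of only the genotypes compared.

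Of 5 other PLEKHA genes, PLEKHA2 was higher in double-KO cells (0.42, adjusted p = 0.0337), where 14.8% of all genes were higher. Limma called 0 of the 5 in CGN-KO and CGNL1-KO cells, where 11.2% and 6.81% of all genes were higher and 7.87% and 3.49% were lower. Of the 5 genes, 2 and 0 had an unadjusted p below 0.05 in these lines, and edgeR and DESeq2 called 0. The call of PLEKHA2 was lost without WT replicate 2 or 3 or any of the double-KO libraries. PLEKHA1, with the other of the largest changes, was at 0.18, -0.041, and 0.13 (adjusted p = 0.123, 0.811, and 0.243). With the replicate block, limma also called PLEKHA1 in CGN-KO (adjusted p = 0.0282) and double-KO cells (adjusted p = 0.0438). PLEKHA2 became a call in CGN-KO cells with this block (adjusted p = 0.0217) or without CGNL1-KO replicate 1 (adjusted p = 0.0482).

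Of 14 genes for partners of the CAMSAP proteins at minus ends, 13 were tested (PDE4DIP was not listed). Limma called 0 in CGN-KO cells, beside 11.2% and 7.87% of all genes called higher and lower, with 3 at an unadjusted p below 0.05 and 0 called by edgeR or DESeq2. In CGNL1-KO cells, where 6.81% and 3.49% of all genes were higher and lower, limma and edgeR called 1 gene and DESeq2 called 2. The gene limma called was KATNBL1, a regulator of the microtubule-severing enzyme katanin (-0.29, adjusted p = 0.0165), and this call was lost without WT replicate 2 or 3 or CGNL1-KO replicate 2, and in a fit of these 2 genotypes only (adjusted p = 0.0646). In double-KO cells, where 14.8% and 11.5% of all genes were higher and lower, 1 was higher, KATNA1, the catalytic subunit of katanin (0.27, adjusted p = 0.00999). KATNAL2, with the largest change in the list, was at -0.31, -0.19, and -0.27 in CGN-KO, CGNL1-KO, and double-KO cells (adjusted p = 0.0851, 0.397, and 0.113).

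Of 11 genes of the gamma-tubulin complex and its anchors, which nucleate microtubules, limma called 0 in each KO line, beside shares of all genes called higher and lower of 11.2% and 7.87% (CGN-KO), 6.81% and 3.49% (CGNL1-KO), and 14.8% and 11.5% (double-KO). The counts at an unadjusted p below 0.05 were 3, 1, and 2 in the CGN-KO, CGNL1-KO, and double-KO lines, and DESeq2 called 1 gene in CGN-KO cells where edgeR called 0. MZT2B was at 0.43, 0.087, and 0.37 (adjusted p = 0.0514, 0.791, and 0.0761), and CDK5RAP2 at 0.022, 0.064, and 0.24 (adjusted p = 0.898, 0.745, and 0.0606). MZT2B became a call in CGN-KO cells under 7 of 20 alternatives, among them DESeq2 (adjusted p = 0.0382), and in double-KO cells under 5 of 20. CDK5RAP2 became a call in double-KO cells under 7 of 20 alternatives. The median log2 fold change of the 11 genes was -0.097, -0.055, and 0.058, respectively.

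For each of the 5 genes that passed the test across genotypes, the genes with the most similar pattern were named by Pearson's correlation of log2(CPM + 1) over the 12 libraries, as a description. The libraries share their genotypes and depths, so that any pair of genes that differs between the same genotypes is correlated. PLEKHA7 was most similar to PRDM16 (r = 0.958), RCC2 (0.946), and BRWD1 (0.936). PRDM16, a transcription regulator, was at a mean of 1.78 CPM in WT cells and at 0 to 0.472 CPM in KO libraries. PRDM16 passed the filter only through its WT libraries, so a pattern that is higher in WT was set by the filter. RCC2 fell from a mean of 140 CPM in WT cells to between 104 and 124 CPM in KO libraries.

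TSPAN33 was most similar to LOC100686903 (0.971), SKIL (0.960), and SAMD11 (0.949). SAMD11 was at a mean of 0.708 CPM in WT cells, below the limit of the filter, and at 0.948 to 2.72 CPM in KO libraries. CAMSAP2 was most similar to ATAD5 (0.933), PRKDC (0.926), and GPD2 (0.925). CAMSAP1 was most similar to LOC111091817 (0.981), NCS1 (0.965), and ESYT1 (0.962), and CAMSAP3 to TIGD5 (0.948), TMEM9 (0.947), and ARVCF (0.939). ARVCF is a relative of p120-catenin.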

How the data were processed

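RNA was sequenced from 12 libraries of MDCKII cells. The authors aligned reads to CanFam3.1 with STAR 2.7.0f, counted them per gene with HTSeq 0.9.1, and filtered and normalized them with edgeR. They deposited 1 table of normalized values in CPM, treated here as a signal because column sums differ. In each library all values were whole multiples of 1 step (within 0.1 reads), so the reads were recovered; 0 columns were left unused. The column of 1 double-KO library carries no number and was not paired.

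Genes above 1 CPM in at least 3 libraries were tested with limma 3.58.1 (R 4.3.3; log2(CPM + 1), trend, 1 fit of 4 genotypes, Benjamini-Hochberg adjustment). A gene was called at an adjusted p below 0.05, and separately at a fold change of at least 2. Alternatives were edgeR 4.0.16 and DESeq2 1.42.0 on recovered reads, a pseudocount of 0.5, no filter, library totals, only the genotypes compared, a replicate block, and leaving out each library. The recovery of reads and the limma, edgeR, and DESeq2 fits without a block were tested on simulated data; the replicate block was not. The smallest library held 16837532 reads; the reads behind the scarcest gene are given with its level.

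Genes and lists were chosen with earlier results of these data known. All 8 genes are named, with list genes at a fold change of at least 2, the 2 largest changes per list, and the 3 most similar genes; other names were chosen after their values were seen. Deviations from the genotype means of same-numbered libraries correlated across genes by 0.632, 0.475, and 0.179 between CGN-KO and CGNL1-KO, so these numbers were taken as pairs from the data; what a number marks is not stated. Other pairs of genotypes did not meet this limit (above 0.1 for each number). WT replicates 1 and 2 correlated by 0.373 and 0.318 with the same-numbered CGN-KO libraries, and by 0.329 and 0.371 with those of CGNL1-KO. For WT replicate 3 these values were -0.082 and 0.011, below the limit. CGN-KO replicate 3 correlated more with CGNL1-KO replicate 2 (0.320) than with CGNL1-KO replicate 3.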

Additional observations from a re-analysis of the deposited data

Results flagged for a closer look

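CAMSAP3 differed between CGN-KO and CGNL1-KO cells in the direct test of the lines, with a log2 difference of 0.37 (limma, SE 0.0948, adjusted p = 0.0305). The mean was 26.9 ± 3.03 CPM in CGN-KO and 20.5 ± 1.26 CPM in CGNL1-KO cells (SD, n = 3), and 3 of 3 CGN-KO libraries were above the CGNL1-KO libraries. The adjusted p was 0.0232 with edgeR, 0.00812 with DESeq2, and 0.0872 in a fit of these 2 genotypes without the block. Leaving out CGN-KO replicate 1 or 2 or CGNL1-KO replicate 2 or 3 ended the call, with adjusted p of 0.123, 0.0963, 0.0789, and 0.143 and log2 differences of 0.30 to 0.36. Dixon's test for a single outlying library was not applied, as genotypes had 3 libraries each.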

How the results depend on the processing

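Across 968 log2 fold changes of the 8 genes under alternatives, 0 called values changed sign. Calls of PLEKHA7 in each KO line and of TSPAN33 in CGN-KO and double-KO cells held under 20 of 20 alternatives each. So did the calls of CAMSAP2 in CGN-KO and CAMSAP1 in double-KO cells. PLEKHA7 was between -0.83 and -0.60 (CGN-KO), -1.17 and -0.86 (CGNL1-KO), and -0.99 and -0.72 (double-KO). With a pseudocount of 0.5, PLEKHA7 was at -1.05 in CGNL1-KO cells and passed the 2-fold limit. The number of the 8 genes called in CGNL1-KO cells (2) was 1 in a fit of the genotypes compared, and from 1 to 2 when a library was left out. In double-KO against CGNL1-KO cells the number (0) was 1 with edgeR, DESeq2, the genotypes compared, and the replicate block, 2 with library totals, and from 0 to 2 when a library was left out. In CGN-KO against CGNL1-KO cells the number (1) was 2 with library totals, 0 in a fit of the genotypes compared, 2 with the replicate block on the 11 numbered libraries, 3 with the block in the 6 libraries (an alternative added after the data were seen, which called 1955 of all genes in place of 656), and from 0 to 3 when a library was left out. The causes were not tested, except that fewer libraries leave fewer degrees of freedom. With the block on 11 libraries, PLEKHA5 in CGNL1-KO cells was called as well (-0.24, adjusted p = 0.0146). So were PLEKHA6 (0.21, adjusted p = 0.0405) and CAMSAP3 (0.30, adjusted p = 0.0307) in double-KO cells. For WT libraries with those of the CGN-KO and CGNL1-KO lines, replicate 3 fell short of the limit for pairing, while replicates 1 and 2 met it. Double-KO libraries did not meet it at any number. Shares per length were not run, because no lengths were used here. PLEKHA7, with 40 to 121 reads per library, had the largest counting error of the 8 genes.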

Other observations

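Neighbours of the 8 genes were taken from the order of RefSeq genes in another dog assembly (UU_Cfam_GSD_1.0), with genes matched on their symbols; 11748 of the 12650 genes tested had a place. Of the 20 tested neighbours of PLEKHA7 (10 on each side), 1 was higher and 2 were lower in the CGN-KO line, 3 were higher and 0 lower in the CGNL1-KO line, and 0 were higher and 4 lower in the double-KO line, with median log2 fold changes of -0.013, 0.024, and -0.084. The shares of all genes called higher and lower were 11.2% and 7.87% (CGN-KO), 6.81% and 3.49% (CGNL1-KO), and 14.8% and 11.5% (double-KO). The adjacent genes C21H11orf58 and RPS13 were at -0.017 and 0.042 (CGN-KO), -0.11 and 0.020 (CGNL1-KO), and -0.081 and -0.035 (double-KO), none of which passed the limma test.

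The neighbours of CAMSAP2 moved in both directions. KIF21B, a kinesin gene next to it, rose by 0.68 in CGN-KO (adjusted p = 0.00245) and by 0.74 in double-KO cells (adjusted p = 0.000897), whereas DDX59, on its other side, fell by 0.19 (adjusted p = 0.0230) and by 0.38 (adjusted p = 8.88e-05). The median over the 20 neighbours of CAMSAP2 was 0.0020, -0.030, and -0.0093 in CGN-KO, CGNL1-KO, and double-KO cells. The 20 neighbours of CAMSAP1 had a median of 0.083 in double-KO cells, where CAMSAP1 itself rose by 0.25. Of these neighbours 1 was called higher, beside 14.8% of all genes.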
